A study of Schizosaccharomyces pombe with 17 samples.

Results

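The libraries described here are the 3 of the 17 fission yeast (Schizosaccharomyces pombe) samples in which an adapter was ligated to RNA 3′ ends before sequencing, and the values are their read coverage over the 5.8S rRNA region of chromosome III. They come from the strain labelled rrp6Δ (JLP1704), from rrp6-cat (JLP1708) and from wild type (CHP1365), with 1 library per genotype. All were grown in liquid YES medium at 32 °C and harvested in mid-log phase. Total RNA was ligated and sequenced as stranded, paired-end Illumina libraries. The rrp6Δ label names a deletion of rrp6. The labels do not say what change rrp6-cat carries. They do not say whether the strains share a parent, or whether any of them is a single clone. The libraries were chosen by their labels and by the deposited files. With 1 library per genotype no difference between genotypes has a replicate check, so values are given with no test, no SD and no p-value.

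The 5.8S rRNA is a small RNA of the large ribosomal subunit. It is transcribed as part of a long precursor, between the 18S and the 28S rRNA, and is separated from the 28S rRNA by cuts in the second internal transcribed spacer. Its 3′ end is then shortened in steps by the RNA exosome, a complex of 3′ to 5′ exonucleases that includes Dis3 and, in the nucleus, Rrp6. In budding yeast, Dis3 takes the spacer back to near the 5.8S end and Rrp6 removes much of the rest, and cells without Rrp6 keep a 5.8S rRNA with a short 3′ extension. In yeasts the mature 5.8S rRNA also has a short and a long form that differ at the 5′ end.

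The sequences under the coverage are shown so that the steps can be placed on the RNA. In the RefSeq build ASM294v3 the 5.8S gene SPRRNA.50 (III:9842-10006, minus strand, 165 bases) lies between a 28S gene on its lower side and an 18S gene on its higher side. Lower positions are therefore toward the RNA 3′ end in that build. The submitters name ASM294v2 as their build, and no coordinate was converted. The rise that opens the lower plateau in the files has the same position number, 9842, as the 3′ base of the gene in ASM294v3, and the sequences are anchored there. In the first sequence, read from 5′ to 3′, capitals mark the 13 bases beyond the upper plateau and the 9 bases of the dip between the plateaus. In the second, which holds the 180 bases after the gene (III:9662-9841, minus strand, ASM294v3), capitals mark bases 1 to 6, 15 to 26 and 172 to 173 after the gene, where coverage steps are described.
5.8S gene: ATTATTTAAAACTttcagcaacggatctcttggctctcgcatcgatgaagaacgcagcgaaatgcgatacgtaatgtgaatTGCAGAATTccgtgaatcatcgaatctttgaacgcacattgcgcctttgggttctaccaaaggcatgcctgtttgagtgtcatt
Spacer after the gene: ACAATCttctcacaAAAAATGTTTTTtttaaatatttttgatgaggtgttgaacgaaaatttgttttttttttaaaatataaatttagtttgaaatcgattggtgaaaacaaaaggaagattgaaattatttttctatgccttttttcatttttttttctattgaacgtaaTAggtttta
Of the 12 bases in the window 15 to 26 after the gene, 11 are A or T, and the first 180 bases hold 78.9% A or T. ASM294v3 lists 3 copies of the 5.8S gene with the same 165 bases. For SPRRNA.51 the 300 bases after the gene also equal those of SPRRNA.50, and for SPRRNA.52 they differ at 63 positions in a base-by-base reading. Reads of identical copies cannot be told apart, and the deposited positions cover 1 copy.

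Coverage was listed for 554 positions in the library labelled rrp6Δ, from 9506 to 10059. It was listed for 568 positions in rrp6-cat, from 9507 to 10074, and for 511 in wild type, from 9510 to 10037. The highest values were 8993 in the library labelled rrp6Δ, 8996 in rrp6-cat and 9014 in wild type, so coverage is taken as capped near these values. The amount of 5.8S rRNA cannot be read from the plateaus, and library depth is unknown. The gene rrp6 was not low in the polyA libraries of the strain labelled rrp6Δ. It was at 179 and 128 FPKM there, at 109 and 86.1 in rrp6-cat, and at 95.4 and 43.2 in wild type. The 3′-ligated files hold no position of rrp6, so the label cannot be checked in them, and the library is named by its label throughout.

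**Figure D1:**
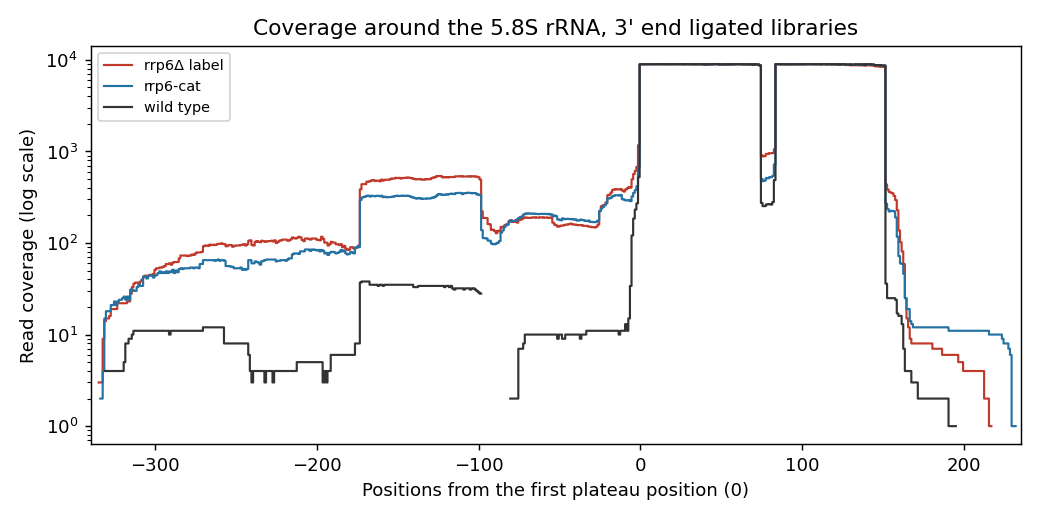
Read coverage (log scale) against the distance from the first plateau position (0, position 9842) in the library labelled rrp6Δ, rrp6-cat and wild type, 1 library each. Lines stop where positions are not listed. All 3 lines share the capped plateaus, and outside them the wild type line lies lowest.

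Coverage reached the plateau in a single step at position 9842 in all 3 libraries. It was 8962 there in the library labelled rrp6Δ, after 1170 at the position before. In rrp6-cat it was 8959 after 673, and in wild type 8961 after 523. The rises were 7792 in the library labelled rrp6Δ, 8286 in rrp6-cat and 8438 in wild type, which is 86.6% of the highest value in the library labelled rrp6Δ, 92.1% in rrp6-cat and 93.6% in wild type. Because the plateau is capped, the size of this rise is a lower limit. Coverage at 9842 was nearly the same in the 3 libraries, so the order of the rises follows from the coverage before it. The lower plateau, taken as positions at 95% or more of the highest value, ran from 9842 to 9916 in every library, a length of 75 positions.

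Read outward from the plateaus, coverage passed under 50%, 25% and 10% of the highest value at 9841 below and at 9994 above, with 1 exception. In the library labelled rrp6Δ it was still at 13.0% at 9841 and passed under 10% at 9840.

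Within the plateaus the steps were small and the profile was shared. The largest were next to the edges: at 9916, the last position of the lower plateau, coverage fell by 216 in the library labelled rrp6Δ, by 138 in rrp6-cat and by 219 in wild type. Inside the upper plateau, the steps at 9981 and 9982 were -52 and 65 in the library labelled rrp6Δ, and -61 and 57 in rrp6-cat. In wild type they were -80 and 95, and only there were they among the 5 largest falls and rises. The falls at 9987, also among the largest, are given below. The median size of a step in the lower plateau was 14.5 in the library labelled rrp6Δ, 15 in rrp6-cat and 13.5 in wild type. Across the 75 positions of the lower plateau, coverage of the library labelled rrp6Δ and of rrp6-cat had a Pearson r of 0.911. The r was 0.864 between the library labelled rrp6Δ and wild type, and 0.784 between rrp6-cat and wild type. In the upper plateau the same 3 values over 62 positions were 0.940, 0.631 and 0.728. Neighbouring positions share reads, and all libraries share the cap and the base composition, so these r describe the profiles only.

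A dip of 9 positions, 9917 to 9925, separated the plateaus in each library. Coverage went to 910 at 9917 in the library labelled rrp6Δ, after 8653 at the position before, a fall of 7743. In rrp6-cat it went to 501 after 8772, a fall of 8271, and in wild type to 274 after 8677, a fall of 8403. The floor was therefore highest in the library labelled rrp6Δ and lowest in wild type.

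The dip had a flat floor and a small shoulder. From 9917 to 9924 coverage stayed between 884 and 963 in the library labelled rrp6Δ, between 474 and 542 in rrp6-cat, and between 253 and 280 in wild type. The lowest position was 9918 in all 3. It stood at 9.90% of the mean of the 10 positions on each side in the library labelled rrp6Δ, at 5.30% in rrp6-cat and at 2.83% in wild type. At 9925, the last position of the dip, coverage rose by 95 in the library labelled rrp6Δ, by 179 in rrp6-cat and by 206 in wild type, the reverse of the order of the floors. At 9926 it rose by 7925 in the library labelled rrp6Δ, by 8265 in rrp6-cat and by 8502 in wild type. The gap between the large fall and the large rise was thus of the same length and place in the 3 libraries, while its floor was 3.52 times higher in the library labelled rrp6Δ than in wild type at the median position, and 1.92 times higher in rrp6-cat. Whether the depth cap changed the floor is not known. Coverage on both sides of the dip is taken as capped and depth is unknown. Differences in the floor and in these large steps therefore cannot be told apart from a difference in depth.

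The edges of the plateaus were spaced by fixed lengths. The rise at 9842 and the fall at 9917 lie 75 positions apart, and the rise at 9926 and the fall at 9994 lie 68 apart. The rise at 9669, described below, was also followed 75 positions later by a fall of similar size, of 272 after a rise of 292 in the library labelled rrp6Δ and of 196 after a rise of 205 in rrp6-cat. In the sources used here, no read length is given for these libraries.

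**Figure D2:**
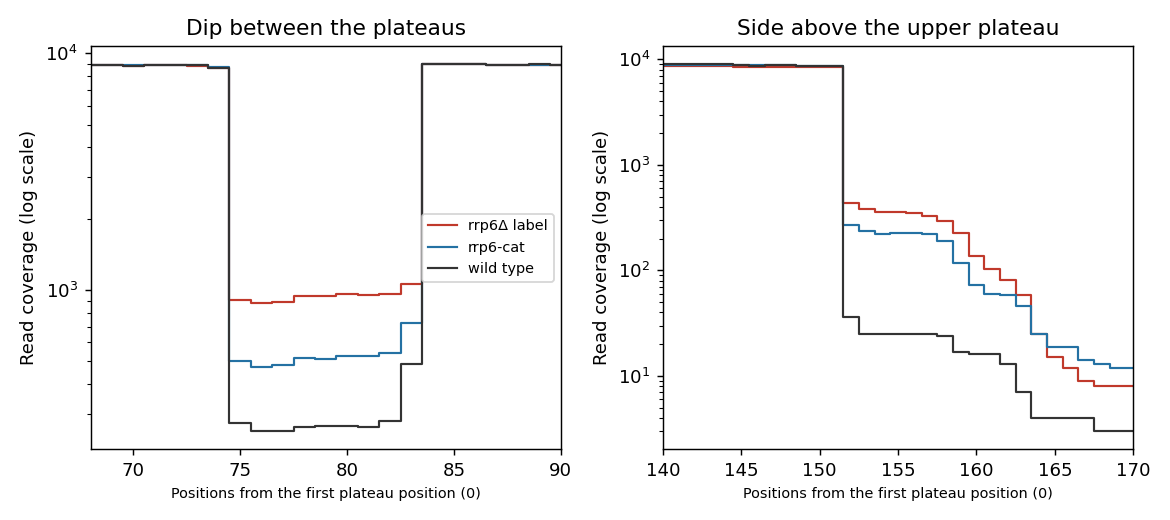
Read coverage (log scale) over the dip (left) and beyond the upper plateau (right), by distance from the first plateau position, in the library labelled rrp6Δ, rrp6-cat and wild type. The dip floors lie at 884, 474 and 253 at their lowest, and the first positions beyond the upper plateau at 436, 269 and 36.

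Below the lower plateau, on the side of the spacer, every library had a first group of steps within 6 positions of the plateau. At 9841, the position next to the plateau, coverage rose by 491 in the library labelled rrp6Δ, by 257 in rrp6-cat and by 252 in wild type. At 9837 the rise was 94 in the library labelled rrp6Δ, 35 in rrp6-cat and 87 in wild type. Over positions 9836 to 9841 the net rise was 761 in the library labelled rrp6Δ (409 before, 1170 at the end), 379 in rrp6-cat (294 before, 673 at the end) and 508 in wild type (15 before, 523 at the end). By net rise wild type thus stood between the other libraries, while at 9841 alone it had the smallest rise of the 3, close to that of rrp6-cat. The windows of this and the next paragraphs were chosen after their values were seen.

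A second group of steps, 15 to 26 positions from the plateau, was present in the library labelled rrp6Δ and in rrp6-cat and not in wild type. Coverage went up by 237 over positions 9816 to 9827 in the library labelled rrp6Δ, with 151 before and 388 at the end. In rrp6-cat it went up by 162, with 171 before and 333 at the end. In wild type coverage was 11 at every one of these 12 positions, a net change of 0. In the 2 libraries with the steps the largest were at 9817, of 65 in the library labelled rrp6Δ and 47 in rrp6-cat, and at 9822, of 55 in the library labelled rrp6Δ and 37 in rrp6-cat. These positions lie 25 and 20 bases past the end of the gene when the sequence is anchored at 9842, in the A- and T-rich stretch shown in capitals. Set against the net rise next to the plateau in the same library, the second group came to 31.1% in the library labelled rrp6Δ, 42.7% in rrp6-cat and 0 in wild type.

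**Figure D3:**
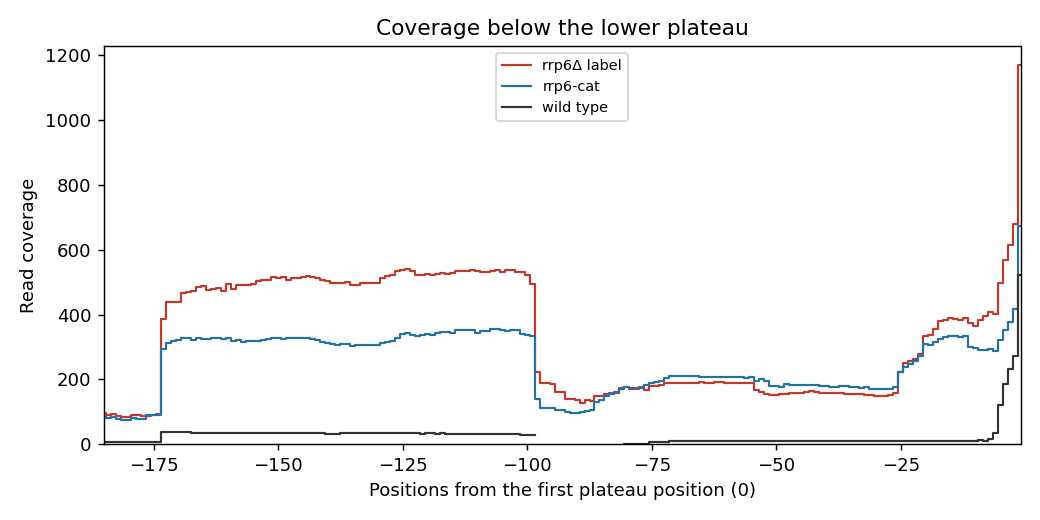
Read coverage (linear scale) over the positions just below the lower plateau, by distance from the first plateau position, in the library labelled rrp6Δ, rrp6-cat and wild type. Steps near -25 and -20 appear in the library labelled rrp6Δ and in rrp6-cat, while wild type stays at 11 from -26 to -15 and rises in the last 6 positions.

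A further rise lay 173 positions below the plateau, deep in the spacer. At 9669 coverage rose by 292 in the library labelled rrp6Δ, by 205 in rrp6-cat and by 29 in wild type. With the next position the net rise was 345 in the library labelled rrp6Δ (94 before, 439 at the end), 223 in rrp6-cat (90 before, 313 at the end) and 30 in wild type (8 before, 38 at the end). All 3 libraries had this step at the same position. As a share of the net rise next to the plateau it was 45.3% in the library labelled rrp6Δ, 58.8% in rrp6-cat and 5.91% in wild type.

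This rise opened a block of raised coverage, 9669 to 9743, 75 positions long. Its median was 512 in the library labelled rrp6Δ, 328 in rrp6-cat and 34 in wild type. Coverage in the block ranged from 386 to 539 in the library labelled rrp6Δ, from 295 to 354 in rrp6-cat and from 28 to 38 in wild type. At 9744 coverage fell to 222 in the library labelled rrp6Δ, from 494 at 9743, and to 138 in rrp6-cat, from 334. In wild type it was 28 at 9743, and the 17 positions from 9744 to 9760 are not listed. A position that is not listed may have had no read, which the files do not state.

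**Figure D4:**
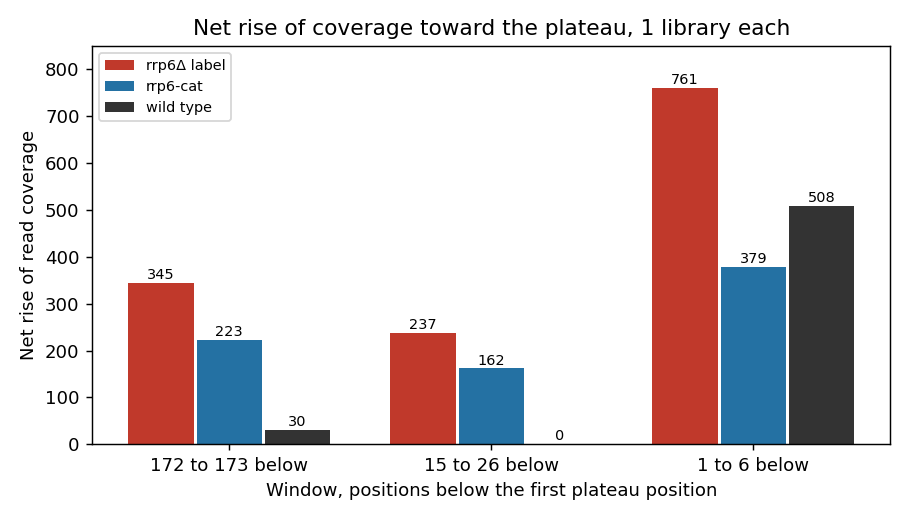
Net rise of read coverage in windows 172 to 173, 15 to 26 and 1 to 6 positions below the first plateau position, 1 library per bar, in the library labelled rrp6Δ, rrp6-cat and wild type. Wild type has net rises of 30, 0 and 508, against 345, 237 and 761 in the library labelled rrp6Δ and 223, 162 and 379 in rrp6-cat.

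Between the block and the second group of steps the order of the mutant libraries changed. Over positions 9754 to 9771 coverage went up by 62 in the library labelled rrp6Δ, to 190, and by 110 in rrp6-cat, to 209. Wild type had 10 at 9771. From 9766 to 9816, a run of 51 positions, rrp6-cat had the higher coverage of the mutant libraries. Of the 335 positions below the plateau listed for both mutant libraries, coverage was higher in the library labelled rrp6Δ at 261, higher in rrp6-cat at 72 and equal at 2.

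Beyond the block, from the first listed position to 9668, coverage was low in every library. It ranged from 3 to 117 in the library labelled rrp6Δ, with a median of 94. In rrp6-cat it ranged from 2 to 91, with a median of 60, and in wild type from 3 to 12, with a median of 6. Steps there were small: the largest rise was 12, at 9572, in the library labelled rrp6Δ, 13, at 9600, in rrp6-cat and 3, at 9524, in wild type. Over the whole side below the plateau wild type had no change at 243 of its 313 steps, where the library labelled rrp6Δ had none at 61 of 335 and rrp6-cat at 71 of 334. Up to 9836, listed wild type coverage on this side was at most 38. The difference in these counts therefore cannot be told apart from the difference in coverage.

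Above the upper plateau, on the side of the RNA 5′ end, the largest fall of each library stood at 9994. Coverage there was 436 in the library labelled rrp6Δ, after 8372 at 9993, a fall of 7936. In rrp6-cat it was 269 after 8673, a fall of 8404, and in wild type 36 after 8691, a fall of 8655. The coverage left was 5.21% of that at 9993 in the library labelled rrp6Δ, 3.10% in rrp6-cat and 0.414% in wild type. The 3 libraries thus had this edge of the upper plateau at the same position and differed in how much coverage ran past it. Whether this fall marks an RNA 5′ end was not tested. The plateau is capped and depth is unknown, so differences between these percents cannot be told apart from a difference in depth.

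The upper plateau itself sloped before this edge. Between 9967 and 9993 coverage declined by 538 in the library labelled rrp6Δ, by 276 in rrp6-cat and by 258 in wild type. In the library labelled rrp6Δ it passed under 95% of the highest value after 9987. At 9987 all 3 libraries had a fall, of 130 in the library labelled rrp6Δ, 89 in rrp6-cat and 174 in wild type.

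Coverage past the edge ended in a second group of falls, 7 to 13 positions on. At 9999 it was 327 in the library labelled rrp6Δ, 221 in rrp6-cat and 25 in wild type. At 10006 it was 25 in the library labelled rrp6Δ, 25 in rrp6-cat and 4 in wild type. The falls over 10000 to 10006 made up 69.3% of the coverage at 9994 in the library labelled rrp6Δ, 72.9% in rrp6-cat and 58.3% in wild type. The largest of them were at 10002 in the library labelled rrp6Δ, of 91, and at 10001 in rrp6-cat, of 73, and wild type fell by 7 at 10001. The last of these positions, 10006, is the number of the first base of the 5.8S gene in ASM294v3. Position 10001 also lies 75 positions past the rise at 9926, the spacing seen at the lower plateau, and whether these falls mark RNA 5′ ends was not tested.

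A thin tail followed, toward the first internal transcribed spacer. At 10018 coverage was 8 in the library labelled rrp6Δ, 12 in rrp6-cat and 2 in wild type. It was listed for 66 positions past the plateau in the library labelled rrp6Δ, for 81 in rrp6-cat and for 44 in wild type. In this tail rrp6-cat stood above the library labelled rrp6Δ, with a median ratio of the library labelled rrp6Δ over rrp6-cat of 0.545 over 53 positions. Coverage from 10007 on was at most 15 in the library labelled rrp6Δ and 19 in rrp6-cat. Neighbouring positions there share reads, so the ratio rests on low coverage and the 53 positions are not independent.

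Set beside wild type position by position, the coverage of the mutant libraries was higher outside the plateaus, by ratios that changed along the region. With coverage as a percent of the library's highest value, it was more than 2-fold higher in the library labelled rrp6Δ at 368 of 368 positions (100%), and in rrp6-cat at 355 of 368 (96.5%). It was more than 2-fold lower at 0 positions in either. At the 14 positions with at least 100 in both libraries compared, the coverage of the library labelled rrp6Δ was more than 2-fold higher at 14 and that of rrp6-cat at 2. Those 14 positions are 9837 to 9841 and 9917 to 9925, where wild type coverage was highest outside the plateaus. The minimum thus picks them by their wild type coverage, and they do not stand for the other positions. All positions compared share reads with their neighbours and are not independent. Since depth is unknown, the general excess cannot be told apart from a difference in depth. The 13 positions at which rrp6-cat was within 2-fold of wild type were 9510, 9838 to 9841, and 9917 to 9922, 9924 and 9925 in the dip.

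The ratio to wild type differed between stretches of the region. The lowest ratio, on the percent scale, was 2.18 at 9925 in the dip in the library labelled rrp6Δ, and 1.29 at 9841 in rrp6-cat. The highest was 89.2 at 9762 in the library labelled rrp6Δ and 91.2 at 9766 in rrp6-cat, where wild type had 2. The ratios that follow are of coverage as deposited. At 9841 coverage was 2.24 times that of wild type in the library labelled rrp6Δ and 1.29 times in rrp6-cat. At the 8 positions between the first and second group of steps, 9828 to 9835, the median ratio was 34.5 in the library labelled rrp6Δ and 27.2 in rrp6-cat. In the block at 9669 to 9743 it was 14.7 in the library labelled rrp6Δ and 9.37 in rrp6-cat. At 9761 to 9815 it was 17.4 in the library labelled rrp6Δ and 20.5 in rrp6-cat. At 9994 to 9999, past the upper plateau, it was 14.1 in the library labelled rrp6Δ and 8.90 in rrp6-cat. In the thin tail from 10007 on it was 3.50 in the library labelled rrp6Δ and 6.00 in rrp6-cat. Wild type had between 10 and 15 at 9828 to 9835, 28 to 38 in the block and 2 to 11 at 9761 to 9815. It had 25 to 36 at 9994 to 9999 and at most 4 in the tail, so the ratios in all these stretches rest on low coverage.

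The polyA libraries give no further value for the 5.8S rRNA. The 3 5.8S genes were listed at 0 FPKM in all 18 values of the 6 polyA libraries of the same genotypes, and a value of 0 can be a failed estimate in this table.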

How the data were processed

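Read coverage at positions of chromosome III was deposited by the authors for 3 libraries with ligated 3′ ends, as whole numbers with no header, and is taken as signal. No coverage tool, cap, scaling, strand or read length is given in the sources used here. Tools listed for the series, with no role, are TopHat2 2.1.0 and Cufflinks 2.2.1 with Bowtie2, Cuffnorm and Cuffdiff, and the build is ASM294v2, per the submitters' processing notes. FPKM values of the polyA libraries were deposited by the authors and used as given, for context. The table of replicates combined was not used.

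A step is coverage at a position minus that at the position before, within a library. Steps were computed with Python 3.11.15, pandas 2.3.3 and numpy 2.4.6. The step and plateau code was run on simulated reads of equal length with no cap, which checks its arithmetic only. Plateaus are runs of at least 10 positions at 95% of the highest value or more. Positions named are the ends of the files and plateaus, the lowest of the dip, the 5 largest rises and falls, and the first under 50%, 25% and 10% on each side. Other positions and all windows were chosen after their values were seen. The members and lists were chosen with earlier results of these data known. Sequences are from RefSeq, build ASM294v3. Depth is unknown, so no interval is given. Plateau threshold, flank length, step length, scaling and fold were varied.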

Additional observations from a re-analysis of the deposited data

Results flagged for a closer look

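In the polyA libraries, which the comparisons do not use for the 5.8S rRNA, the 5.8S gene SPRRNA.52 was listed at 6.26 FPKM in dis3-4 at 23 °C, replicate 1, and at 0 in both wild type libraries. It was the only value above 0 among 42 values of the 3 5.8S genes in 14 polyA libraries.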

How the results depend on the processing

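Of 63 alternative values for 41 results, 44 stayed within the range set for the main value. That range was not the same share of the main value for every result, so this count does not measure robustness. Steps of at least 1% of the highest coverage numbered 12 in the library labelled rrp6Δ, 9 in rrp6-cat and 9 in wild type. In the same order the count was 38, 29 and 24 with steps over 3 bases, and 68, 47 and 33 over 5 bases. Steps over 3 or 5 bases overlap, so a large step is counted at more than 1 position and these counts grow by construction. With a minimum of 0.5% the count was 32, 25 and 22. The largest rise was 8347, 8581 and 8729 over 3 bases and 8466, 8637 and 8840 over 5 bases, which sum neighbouring steps by construction. The positions more than 2-fold above wild type were 14 of 14 in the library labelled rrp6Δ and 2 of 14 in rrp6-cat where both libraries had at least 100, against 368 and 355 of 368 positions without that minimum. These 14 positions lie next to the lower plateau and in the dip, and the minimum picks them by their high wild type coverage. With windows chosen after seeing the data, the net rise 165 to 180 positions below the plateau was 403 in the library labelled rrp6Δ, and that 10 to 30 below was 128 in rrp6-cat and still 0 in wild type. The first positions under 50%, 25% and 10% of the highest value and the lowest coverage of the dip as a percent of its flanks stayed within their ranges under the alternatives run. The alternative reference for the thresholds, the median plateau coverage, lay close to the highest value, and every flank length stayed in the capped plateaus. These alternatives could therefore hardly move the results. The plateaus covered 137 positions in the library labelled rrp6Δ, 143 in rrp6-cat and 143 in wild type, and 103, 97 and 105 with a threshold of 99% of the highest value. No paired analysis was possible because each genotype has 1 ligated library and the values come from no test. Read depth is unknown and the plateaus are capped, which limits every statement on amounts.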
